A study of Mus musculus with 6 samples.

Results

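Translation factors are the proteins that bring the ribosome, the mRNA and the transfer RNAs together, and here they were taken as the genes of the deposited table whose symbol begins with Eif or Eef and a digit. Of 78 matching symbols, 10 pseudogene symbols and 4 Eif2ak kinase symbols were left out, and the near-identical pair Eif3j1 and Eif3j2 was summed into 1 row. This gave 63 genes of 17830, of which 60 passed the filter on low counts among 13622 genes that did. The libraries came from group 2 innate lymphoid cells (ILC2s), the lung lymphocytes that release the type 2 cytokines IL-5 and IL-13. WT mice (labelled CB57BL/6, and CB57BL/6 J in the study's methods) and SIRPα KO mice (SIRPalphatm1Ynliu/J, a germline knockout of the inhibitory receptor SIRPα, so that cells other than ILC2s also lacked it) contributed 3 libraries each. Mice aged 6 to 8 weeks received intranasal IL-33 (0.5 µg) on 3 days, and live CD45+ lineage- CD127+ ST2+ cells were sorted on day 4. The sorted cells were then kept with IL-2 and IL-7 for 18 h, although 24 h is also given for this culture, and 10 pg of RNA per sample was made into cDNA. No sample lacked IL-33, IL-2 or IL-7, so each comparison below is of genotype in activated cells.

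Initiation begins when eIF2, loaded with GTP and the initiator transfer RNA, joins the small ribosomal subunit with eIF1, eIF1A, eIF3 and eIF5. The eIF4 proteins bind the cap and unwind the leader of the mRNA, 4E-binding proteins hold the cap-binding protein eIF4E inactive until mTOR phosphorylates them, and eIF2B reloads eIF2 with GTP. During elongation eEF1A delivers each aminoacyl-transfer RNA, the eEF1B subunits recharge eEF1A, and eEF2 moves the ribosome along. Activated lymphocytes make proteins at a high rate, and both the 4E-binding proteins and eIF2 are classical points of control.

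The libraries held 13980491 to 19051504 estimated counts, and biological variation was wider among WT (38.0%, as the biological coefficient of variation) than among SIRPα KO libraries (15.2%), with WT replicate 3 farthest from the others. The library codes pair WT replicates 1 and 2 (37 and 37V1) and SIRPα KO replicates 2 and 3 (44 and 44V1), the series text speaks of duplicates, and the labels do not name the animals, so that p-values measure the spread between these libraries, which may be technical. Sirpa itself lay at 8.57, 6.83 and 4.83 CPM (counts scaled to the size of the library) in WT and 3.07, 4.46 and 1.74 in SIRPα KO libraries (log2 fold change -1.12, adjusted p = 0.115 from edgeR), and counts per gene do not show on which exons the remaining reads lay. The 8 ILC2 markers summed to 11420 to 12710 CPM in WT and 16390 to 16960 in SIRPα KO, Il5 being the largest of them. Markers of other cells were far lower: 6 T cell genes summed to 52.9 to 73.4 and 30.0 to 35.0 CPM, 4 B cell genes to 88.3 to 184.5 and 2.37 to 22.5, and 3 NK cell genes to 8.97 to 15.96 and 1.02 to 3.66. Genes of macrophages and dendritic cells (5 of them) summed to 41.0 to 128.7 and 73.4 to 116.4 CPM. Of 2 listed endothelial genes only 1, Pecam1, was in the count data, and it was higher, at 16.2 to 27.4 and 40.3 to 43.8 CPM. The 3 epithelial genes (16.8 to 25.5 and 7.13 to 12.9) and the globin gene Hba-a1 (5.48 to 8.94 and 1.79 to 2.15) were lower. Eosinophil genes (1.64 to 4.90 and 3.47 to 20.8) and mast cell and basophil genes (7.07 to 20.8 and 0.787 to 9.97) overlapped between the groups, and the part of any of these in the results below was not tested.

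Together the 63 genes took 1.922%, 2.001% and 2.163% of all reads in WT and 2.39%, 2.31% and 2.29% in SIRPα KO libraries. The 48 initiation genes took 1.30%, 1.30% and 1.29% in WT and 1.67%, 1.60% and 1.60% in SIRPα KO, and these groups did not overlap. The 15 elongation genes (the factors and the enzymes that modify them) took 0.624%, 0.701% and 0.874% against 0.721%, 0.706% and 0.691%, and these groups overlapped. One gene, Eif4g2, made up much of the first difference: it took 0.159%, 0.147% and 0.0832% in WT and 0.342%, 0.328% and 0.321% in SIRPα KO. Without it the 62 other genes, initiation and elongation together, took 1.76%, 1.85% and 2.08% against 2.05%, 1.98% and 1.97%, and the groups overlapped. These 62 include the elongation genes. With Eif4g2 taken off the initiation genes alone, the share in every SIRPα KO library still lay above that in every WT library. In bulk RNA, fewer cells of a type and less RNA per cell cannot be told apart.

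**Figure D1:**
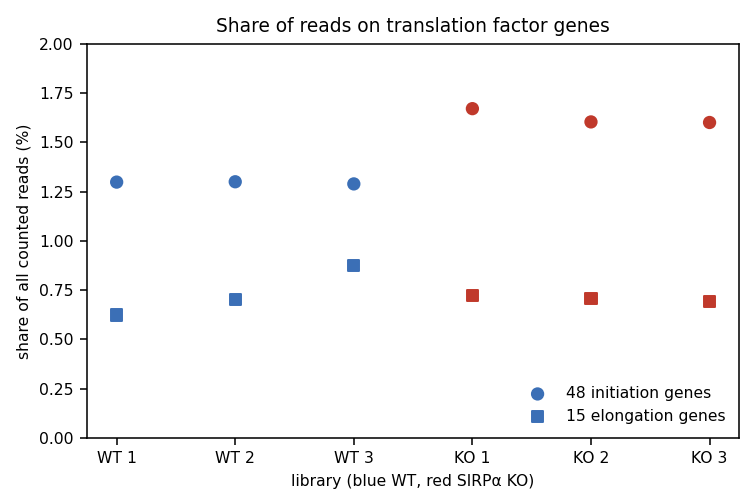
The plot gives the share of all counted reads (%, from 0) on the 48 initiation genes (circles) and the 15 elongation genes (squares) in each library, WT in blue and SIRPα KO in red. The initiation share lies at 1.29% to 1.30% in the 3 WT and 1.60% to 1.67% in the 3 SIRPα KO libraries, while the elongation shares of the groups overlap.

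Gene by gene, 11 translation factors were higher and 1 was lower in SIRPα KO ILC2s at an adjusted p under 0.05, by edgeR's quasi-likelihood test with Benjamini-Hochberg adjustment over all 13622 genes. The 11 were 18.3% of the 60 tested, where 5.94% of all genes were higher, 5.80% lower and 11.7% changed either way. They were Eif4g2, Eif1a, Eif2s3x, Eif2a, Eif3a, Eif4b, Eif4g1, Eif5, Eif2b5, Eif3j and Eif2s1, all of them initiation genes, and the gene that fell was Eif4ebp2. Of all 60, 31 had a log2 fold change above 0 and 29 below it, and the median was 0.028, beside -0.025 over all genes. Of the 48 that were not called, 20 lay above 0 and 28 below it, with a median of -0.067. At an unadjusted p under 0.05, 19 were higher and 7 lower, where 32.0% of all genes lay under it. By order alone, all SIRPα KO libraries lay above all WT libraries for 24 genes and below them for 10, which is 56.7% of the 60, where 42.8% of all genes did not overlap (21.6% above and 21.2% below). The shares over all genes given in this paragraph are those to set beside the counts by role and by list below. The calls rest on few libraries. None of the 12 was called when any 1 SIRPα KO library was left out (13 to 16 genes were then called in the whole table) or when libraries of one code were summed, while 15 to 17 were higher and 4 lower at an unadjusted p under 0.05 in those fits. Without WT replicate 1, 6 were higher and none lower, and without WT replicate 2 the counts were 11 and 4. Without WT replicate 3, 20 were higher and 4 lower, where 10.4% of all genes were higher, 8.07% lower and 18.4% changed either way. DESeq2, the nearest tool to the one the study used, called 18 higher and 4 lower, the 12 among them, where 12.3% of all genes were higher, 10.4% lower and 22.6% changed either way.

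**Figure D2:**
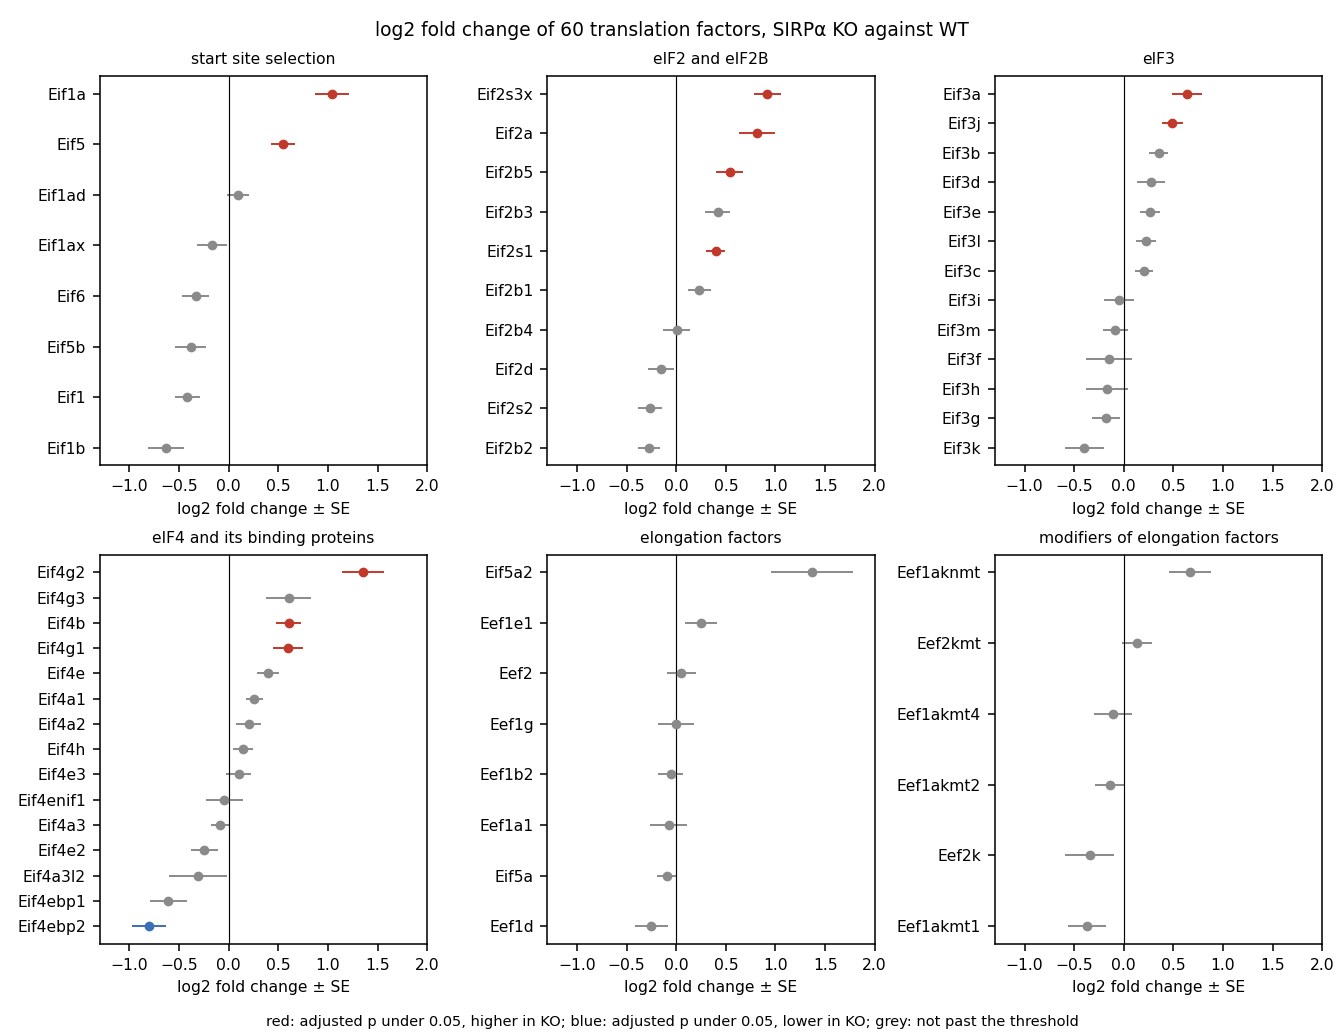
Points give the log2 fold change of SIRPα KO against WT with its standard error for the 60 tested genes, in 6 panels by role, in red where higher and blue where lower at an adjusted p under 0.05 and in grey otherwise. The red points are 2 start site genes, 4 genes of eIF2 and eIF2B, 2 eIF3 genes and 3 eIF4 genes, the only blue point is Eif4ebp2, and neither elongation panel holds a coloured point.

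The windows just before the transcription start are shown for genes on which the results turn, and for a pair that was not called (Eef2, the translocase, and Eif3f, an eIF3 subunit). Each is the 80 bases before a RefSeq start on build GRCm38.p6, read 5′ to 3′ on the gene's strand, with capitals marking CACGTG, the E-box that MYC and the MIT family factors recognise. The gene's own start may differ in other annotations.
Eif4g1, chr16:20672647-20672726, plus strand: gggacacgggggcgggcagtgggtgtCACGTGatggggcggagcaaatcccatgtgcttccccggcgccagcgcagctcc
Eif4b, chr15:102073693-102073772, plus strand: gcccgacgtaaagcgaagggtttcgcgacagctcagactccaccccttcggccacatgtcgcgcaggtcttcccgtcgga
Eif2s3x, chrX:94212652-94212731, minus strand: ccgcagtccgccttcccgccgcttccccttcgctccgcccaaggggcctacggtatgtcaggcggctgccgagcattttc
Eif4ebp2, chr10:61452670-61452749, minus strand: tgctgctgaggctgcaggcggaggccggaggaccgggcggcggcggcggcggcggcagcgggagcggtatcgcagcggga
Eef2, chr10:81176551-81176630, plus strand: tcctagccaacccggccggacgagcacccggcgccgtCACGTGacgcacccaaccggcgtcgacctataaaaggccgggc
Eif3f, chr7:108934335-108934414, plus strand: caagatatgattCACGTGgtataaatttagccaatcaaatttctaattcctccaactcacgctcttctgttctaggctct

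RefSeq promoters of 300 bases (250 before and 50 after the start) were at hand for 48 of the 63 genes. CACGTG, which reads the same on both strands, was in a promoter of 14 of the 48 (29.2%), where 8.09% of 27025 genes held it. Of the 11 genes that rose, 8 had a promoter at hand and 2 held the letters: Eif4g1 at -54 and +16, and Eif3a at +23, counted from the start. The CRE letters TGACGTCA, which also read the same on both strands, were in 1 of the 48 (Eef2, at +3) and in 2.03% of all genes. A match is a description of these letters and not a site in use.

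Among the factors that select the start codon, 8 genes were tested, 2 rose and none fell by edgeR (4 lay lower at an unadjusted p under 0.05, and DESeq2 called 2 lower), and the median log2 fold change was -0.25. Eif1a, a copy of the gene for eIF1A (the factor that keeps the small subunit open for scanning), lay at 126, 136 and 88.2 CPM in WT and 245, 231 and 244 CPM in SIRPα KO libraries. It was 2.06-fold higher (log2 fold change 1.04 ± 0.17 SE, n = 3 and 3, adjusted p = 0.0156 from edgeR), and the groups stood well apart. The X-linked copy Eif1ax lay at 132, 146 and 187 against 137, 134 and 143 CPM, with groups that overlapped (log2 fold change -0.17 ± 0.15, adjusted p = 0.459 from edgeR). Eif5, which makes eIF2 hydrolyse its GTP once the start codon is found, lay on chromosome 12 (111538016 to 111546752, GRCm38) at 582, 532 and 438 CPM in WT and 756, 735 and 774 in SIRPα KO. Its rise was 1.46-fold (log2 fold change 0.55 ± 0.12, adjusted p = 0.0301 from edgeR).

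The other start site genes did not pass the threshold, and 5 of the 6 had values below 0. Eif1, whose product guards against wrong start codons, lay at 1221, 1181 and 1590.3 CPM in WT and 1019, 961 and 1011 in SIRPα KO libraries. All SIRPα KO libraries were below all WT libraries, at a log2 fold change of -0.42 ± 0.13 (adjusted p = 0.0685 from edgeR). Its relative Eif1b gave the most negative value of the group, from 60.03, 60.3 and 85.5 to 47.998, 42.1 and 42.8 CPM (log2 fold change -0.63 ± 0.18, adjusted p = 0.0570 from edgeR). Eif6, which keeps the large subunit from joining too early, lay at 402, 360.2 and 509 against 339, 328 and 342 CPM (log2 fold change -0.33 ± 0.14, adjusted p = 0.141 from edgeR). Eif5b, the GTPase that joins the subunits, was at -0.38 ± 0.15 (adjusted p = 0.131 from edgeR). Eif1, Eif1b, Eif5b and Eif6 were each below WT in every SIRPα KO library. The size of the differences depended on WT replicate 3, the highest library for all 4. Without it Eif1 was at -0.26 (adjusted p = 0.0145 from edgeR) and Eif1b at -0.43 (adjusted p = 0.0400 from edgeR), and both were then called lower. Eif5b was at -0.22 (adjusted p = 0.145 from edgeR) and Eif6 at -0.17 (adjusted p = 0.128 from edgeR), and neither was called. DESeq2 on all 6 libraries also called Eif1 and Eif1b lower. With the correction for length and GC, Eif1 was at 0.01, Eif1b at -0.02 and Eif6 at 0.23. Eif5b moved the other way under this correction, to -0.90 (adjusted p = 0.0518 from edgeR).

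In the group of eIF2, its exchange factor eIF2B and the related factors Eif2a and Eif2d, 10 genes were tested, 4 rose and none fell by edgeR (1 lay lower at an unadjusted p under 0.05, and 0 by DESeq2), with a median log2 fold change of 0.31. Eif2s3x, the X-linked gene of the GTP-binding eIF2γ subunit (chromosome X, 94188707 to 94212862, GRCm38), lay at 143, 172 and 132 CPM in WT and 309, 275 and 259.6 in SIRPα KO libraries. It was 1.89-fold higher (log2 fold change 0.92 ± 0.14, adjusted p = 0.0137 from edgeR). Its Y-linked partner Eif2s3y was not analysed here. Eif2s1, the eIF2α subunit that stress kinases phosphorylate, rose less, from 400.3, 359.7 and 348 to 492, 471 and 495 CPM (1.32-fold, log2 fold change 0.40 ± 0.10, adjusted p = 0.0408 from edgeR). Eif2s2, the eIF2β subunit, lay lower in every SIRPα KO library, at 345, 341 and 432 against 308, 309.9 and 311 CPM, without passing the threshold (log2 fold change -0.27 ± 0.12, adjusted p = 0.166 from edgeR).

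The 3 subunits of eIF2 work as 1 complex, and their transcripts gave unlike values. The log2 ratio of Eif2s3x to Eif2s2 was -1.27, -0.99 and -1.71 in WT and 0.0057, -0.17 and -0.26 in SIRPα KO libraries, a pair chosen after its values were seen. Eif2b5, the catalytic ε subunit of eIF2B (chromosome 16, 20498817 to 20509323), rose from 107, 104 and 86.3 to 154, 148 and 129 CPM (1.45-fold, log2 fold change 0.54 ± 0.14, adjusted p = 0.0426 from edgeR). Eif2b2, its β subunit, lay lower, at 107, 104 and 110.3 against 91.0, 91.7 and 83.6 CPM (log2 fold change -0.27 ± 0.11, adjusted p = 0.141 from edgeR). Of the 5 eIF2B genes, Eif2b1, Eif2b3 and Eif2b5 were above WT in every SIRPα KO library, Eif2b4 overlapped and Eif2b2 was below. Eif2a, which can deliver the initiator transfer RNA without eIF2, rose from 41.6, 46.1 and 29.7 to 69.3, 66.7 and 70.8 CPM (1.76-fold, log2 fold change 0.82 ± 0.18, adjusted p = 0.0316 from edgeR).

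**Figure D3:**
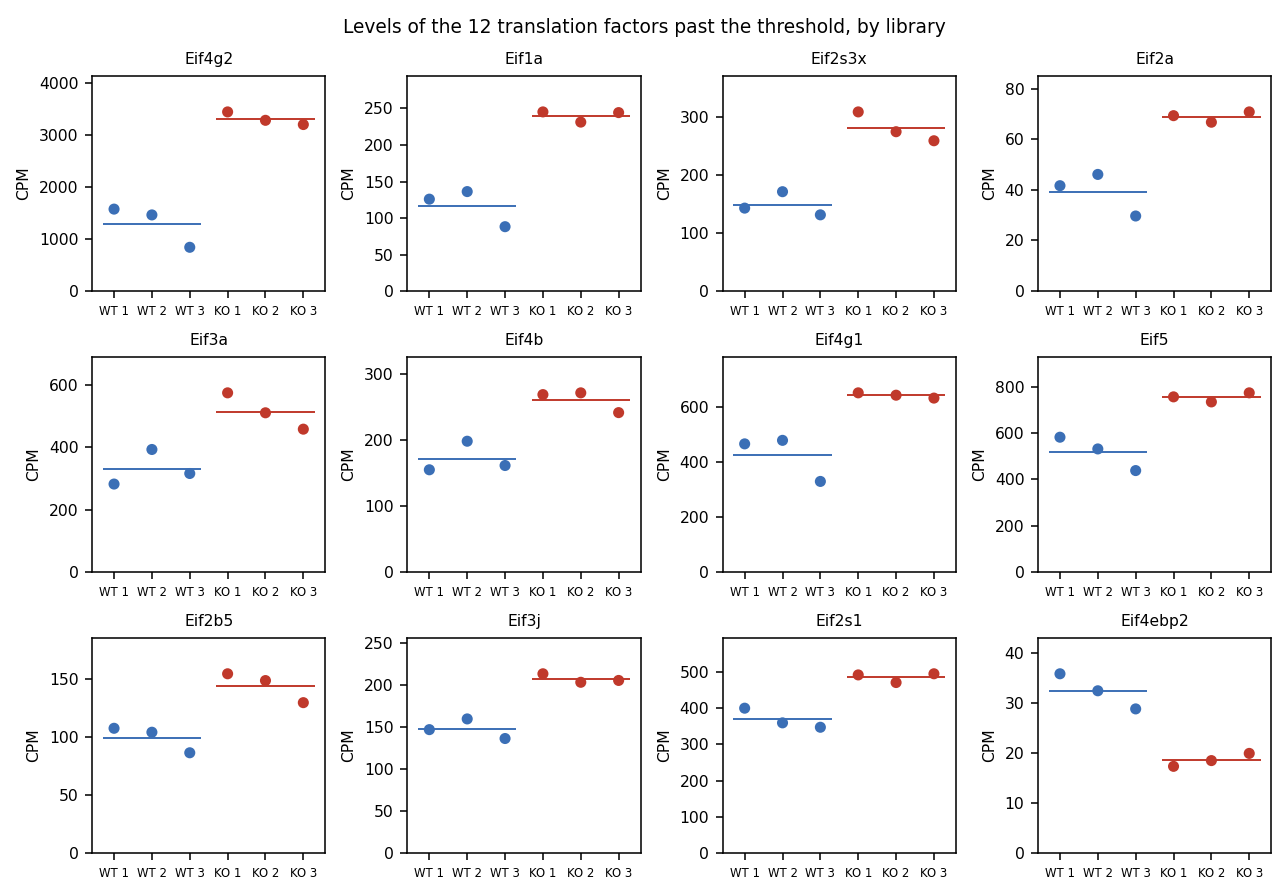
Each panel gives 1 of the 12 genes past the threshold, with the CPM of every library (points, axis from 0) and the mean of each group (lines), WT in blue and SIRPα KO in red. In all 12 the groups do not overlap, and for the 11 that rose the lowest point is WT replicate 3, except for Eif3a and Eif4b, where it is WT replicate 1.

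For eIF3, the large scaffold that holds the mRNA channel of the small subunit, 13 genes were tested, 2 rose and none fell by edgeR (0 lay lower at an unadjusted p under 0.05, and 0 by DESeq2), and the median log2 fold change was 0.21. Eif3a, the largest subunit (chromosome 19, 60761117 to 60790658), lay at 282, 392.3 and 315 CPM in WT and 574, 509.7 and 457 in SIRPα KO libraries, a 1.56-fold rise (log2 fold change 0.64 ± 0.15, adjusted p = 0.0352 from edgeR). Eif3b, its partner in the core, was also above WT in every SIRPα KO library but missed the threshold (log2 fold change 0.35 ± 0.10, adjusted p = 0.0548 from edgeR). Eif3e, at 235, 220.4 and 259 against 294, 276 and 288 CPM, was also above WT in every SIRPα KO library (log2 fold change 0.26 ± 0.10, adjusted p = 0.131 from edgeR). At the other end was Eif3k, a peripheral subunit, at 120.4, 139 and 209 against 118, 116 and 121 CPM, with groups that overlapped (log2 fold change -0.40 ± 0.20, adjusted p = 0.210 from edgeR). It was at -0.12 without WT replicate 3 and at -0.04 with the correction for length and GC. In all, 6 of the 13 subunit genes were above WT in every SIRPα KO library and none was below, where 21.6% of all genes lay above and 21.2% below.

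The eIF3j subunit, which sits loosely on the complex near the mRNA entry channel, is encoded by 2 mouse genes whose reads must be added. Summed, they gave 147, 160.0 and 137 CPM in WT and 214, 204 and 206 in SIRPα KO libraries, a 1.40-fold rise (log2 fold change 0.49 ± 0.11, adjusted p = 0.0307 from edgeR). Their split was far more uneven than their sum. Eif3j1 on chromosome 2 had 2224, 1907 and 1812 reads in WT and 1206, 1464 and 1199 in SIRPα KO libraries. Eif3j2, on another chromosome, had 336, 343 and 251 against 2140, 2418 and 2121 reads. The share of Eif3j2 was thus 13.1%, 15.2% and 12.2% in WT and 64.0%, 62.3% and 63.9% in SIRPα KO.

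Fitted apart, Eif3j1 fell (log2 fold change -0.75 ± 0.11, adjusted p = 0.0139 from edgeR) and Eif3j2 rose (log2 fold change 2.71 ± 0.17, adjusted p = 5.43e-04 from edgeR). The annotated transcripts are 99.41% identical over the 2379 bases of the shorter one, with 4 mismatches and 10 gap positions, so the values of either gene alone are uncertain. How reads that match both were counted is not stated in the sources used here. Eif3j1 (122028546 to 122056598) lies 7.54 megabases from Sirpa (129592835 to 129632228), the gene targeted in these mice, on chromosome 2. The strain origin of the targeted chromosome was not analysed, and genotype and any linked sequence difference cannot be told apart here.

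**Figure D4:**
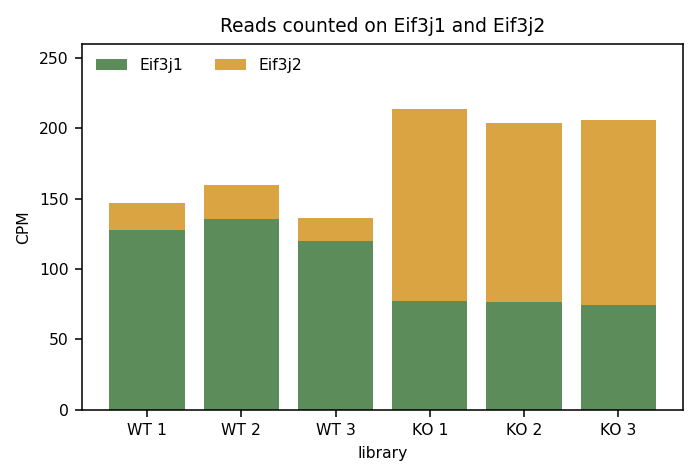
Stacked bars give the CPM (axis from 0) counted on Eif3j1 (green) and Eif3j2 (yellow) in each library. Eif3j2 is 12.2% to 15.2% of the bar in WT and 62.3% to 64.0% in SIRPα KO libraries, while the summed height is 137 to 160.0 CPM in WT and 204 to 214 in SIRPα KO.

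The eIF4 group held the largest change of all 12. Of its 15 tested genes, 3 rose and 1 fell by edgeR, and the median log2 fold change was 0.15. At an unadjusted p under 0.05, 6 lay higher and 2 lower, and DESeq2 called 6 higher and 2 lower. Eif4g2, which encodes DAP5 (an eIF4G relative that lacks the eIF4E-binding part and serves cap-independent initiation), lay at 1577, 1465 and 843 CPM in WT and 3445, 3283 and 3202 in SIRPα KO libraries. The rise was 2.56-fold (log2 fold change 1.35 ± 0.21, adjusted p = 0.0147 from edgeR), on chromosome 7 at 111067750 to 111083030. WT replicate 3 was the lowest, and without it the log2 fold change was 1.13. Eif4g1, the main scaffold that joins eIF4E, the helicase and eIF3, rose from 466, 479 and 329.5 to 652, 643 and 633 CPM (1.51-fold, log2 fold change 0.60 ± 0.15, adjusted p = 0.0411 from edgeR). The log2 ratio of Eif4g2 to Eif4g1, chosen after its values were seen, was 1.76, 1.61 and 1.35 in WT and 2.40, 2.35 and 2.34 in SIRPα KO libraries.

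Eif4b, which stimulates the helicase, rose from 155, 198 and 162 to 269, 272 and 242 CPM (1.52-fold, log2 fold change 0.60 ± 0.13, adjusted p = 0.0284 from edgeR) and lies on chromosome 15 at 102073773 to 102097173. Of the helicase genes, Eif4a1 lay at 1470.4, 1323 and 1336 against 1711, 1589 and 1634 CPM (log2 fold change 0.26 ± 0.09, adjusted p = 0.0866 from edgeR). Eif4a2 was at 0.20 ± 0.12 (adjusted p = 0.294 from edgeR), and both were above WT in every SIRPα KO library. Eif4e, the cap-binding protein, lay at 322, 296 and 271 CPM in WT and 429, 368 and 375 in SIRPα KO libraries (log2 fold change 0.40 ± 0.11, adjusted p = 0.0594 from edgeR). Eif4e was called higher by DESeq2 (0.40, adjusted p = 0.0133) and by edgeR without WT replicate 3 (0.34, adjusted p = 0.0368). With the correction for length and GC, Eif4e was at 0.01 (adjusted p = 0.951 from edgeR).

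Both tested genes of the 4E-binding proteins, Eif4ebp1 and Eif4ebp2, had lower values in SIRPα KO libraries, and 1 passed the threshold. Eif4ebp2 (chromosome 10, 61428491 to 61452661) lay at 35.8, 32.4 and 28.8 CPM in WT and 17.3, 18.5 and 19.9 in SIRPα KO libraries, 1.74-fold lower (log2 fold change -0.80 ± 0.17, adjusted p = 0.0277 from edgeR). Eif4ebp1, the more abundant relative, was at 207, 190.3 and 309 against 151, 151 and 162 CPM, also below WT in every SIRPα KO library (log2 fold change -0.61 ± 0.19, adjusted p = 0.0695 from edgeR). Without WT replicate 3, its highest library, the log2 fold change was -0.36, and Eif4ebp1 was then called lower (adjusted p = 0.0249 from edgeR). DESeq2 on all 6 libraries also called it lower (adjusted p = 0.0216). With the correction for length and GC it was at -0.43 and was not called (adjusted p = 0.0845 from edgeR). Eif4ebp3 failed the filter on low counts. Eif4enif1, also listed with the proteins that bind eIF4 factors, had groups that overlapped (log2 fold change -0.04 ± 0.19, adjusted p = 0.889 from edgeR). As counted, without the correction for length and GC, the log2 ratio of Eif4e to Eif4ebp2 was 3.17, 3.19 and 3.24 in WT. It was 4.63, 4.31 and 4.24 in SIRPα KO libraries, a pair chosen after its values were seen. These are transcript levels, and the phosphorylation that controls these proteins was not measured in them.

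None of the 8 tested elongation factors changed at the threshold, and 1 (Eif5a2) had an unadjusted p under 0.05. DESeq2, run as an alternative, called 1 higher, which was Eif5a2. With the correction for length and GC, Eif5a was called higher (log2 fold change 0.40, adjusted p = 0.0276 from edgeR), 7 of the 8 lay above 0, and the median went from -0.030 to 0.22. Eef1a1, the abundant carrier of aminoacyl-transfer RNA, lay at 1707, 2435 and 3066 CPM in WT and 2333, 2309 and 2187 in SIRPα KO libraries, where the WT range encloses the SIRPα KO range (log2 fold change -0.08 ± 0.19, adjusted p = 0.802 from edgeR). Eef2, the translocase, lay at 855, 1058 and 1270.5 against 1178, 1093 and 1025 CPM (log2 fold change 0.05 ± 0.15, adjusted p = 0.835 from edgeR). Eef1b2, an exchange subunit for eEF1A, was at -0.06 ± 0.12 (adjusted p = 0.780 from edgeR). Eef1d, another exchange subunit, had the most negative value, -0.25 ± 0.16 (adjusted p = 0.324 from edgeR), and was at -0.03 without WT replicate 3. For Eef1a1 and Eef2 the lowest and the highest library were both WT.

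The eIF5A genes encode the hypusine-bearing factor that helps the ribosome past difficult peptide bonds. Eif5a was abundant, at 2307, 2027 and 2582 CPM in WT and 2183, 2142 and 2152 in SIRPα KO libraries (log2 fold change -0.09 ± 0.10, adjusted p = 0.544 from edgeR). Its rare relative Eif5a2 lay at 12.4, 5.26 and 5.10 against 27.7, 16.4 and 15.1 CPM, above WT in every SIRPα KO library but short of the threshold (log2 fold change 1.37 ± 0.41, adjusted p = 0.0683 from edgeR). Of 6 tested enzymes that modify elongation factors, none changed at the threshold by edgeR, 1 had an unadjusted p under 0.05, and DESeq2 called 1 higher. That gene was Eef1aknmt, a methyltransferase of eEF1A, at 39.6, 53.6 and 30.8 against 72.2, 63.5 and 60.8 CPM (log2 fold change 0.67 ± 0.21, adjusted p = 0.0783 from edgeR). Eef2k, the kinase that halts eEF2, was at -0.34 ± 0.24 (adjusted p = 0.361 from edgeR), and Eef1akmt1 had the most negative value, -0.37 ± 0.19 (adjusted p = 0.217 from edgeR). Eef1akmt3, Eif4a3l1 and Eif4ebp3 were too low to test, with at most 0.892 CPM in any library. Eef1a2 and Eif4e1b were not analysed here.

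Per length of transcript, elongation factors stood at the top of the 63 genes. As CPM per kilobase, Eif5a averaged 1604 in WT and 1502 in SIRPα KO libraries, Eef1a1 1339 and 1269, and Eif1 1007 and 754. The mean of Eif4g2 went from 162 to 414 CPM per kilobase, and that of Eif4a1 from 435 to 519. Reads of Eef1a1, Eef1g, Eif3h and Eif4a3 may be shared with near-identical copies elsewhere, so their levels are uncertain.

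Some of these mRNAs begin with a 5′ terminal oligopyrimidine tract, the element through which mTOR controls the translation of ribosomal protein and elongation factor mRNAs. Of 9 such genes among the 60, Eif4b rose, none fell by edgeR (0 lower at an unadjusted p under 0.05, and 0 by DESeq2), and the median log2 fold change was -0.057. A further 90 genes were taken by symbol as cytosolic ribosomal protein genes, related copies among them, and the tract was not checked in each. Of these 90, none rose by edgeR (0 higher at an unadjusted p under 0.05, and 0 by DESeq2) and 4 fell (62 lower at an unadjusted p under 0.05, and 37 by DESeq2), with a median of -0.60 and all 90 below 0. Without WT replicate 3 the median was -0.27, with 30 called lower and 6 of the 90 above 0. Once length and GC content were corrected for, their median was -0.023, with 41 above 0 and 49 below, 3 higher and none lower.

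Changes among translation factors went with the length of the transcript. Among the 20 shortest (880 to 2025 bases) the median log2 fold change was -0.15 and none was called, among the middle 20 (2170 to 3465 bases) it was 0.20 with 4 called higher, and among the 20 longest (3473 to 8134 bases) it was 0.45 with 7 called higher and 1 lower. Genes in the whole table of the same lengths had medians of -0.33, -0.0037 and 0.25, and 1.16%, 4.81% and 9.62% of them were called higher. The genes that rose had a median length of 3854 bases, against 2514.5 for those not called. Spearman's rho of length and change was 0.499 over the 60 genes and 0.464 over 13485 genes, a description over genes of the same 6 libraries.

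With a correction for length and GC content the medians of the 3 classes of length became 0.20, 0.19 and 0.17, and that of all 60 genes 0.19, beside 0.072 over all genes. The count stayed at 11 higher and 1 lower, where 5.01% of all genes were higher, 3.54% lower and 8.55% changed either way. Of the 11, 7 were shared: Eif4g2 (log2 fold change 0.90), Eif1a (0.90), Eif2s3x (0.71), Eif2b5 (0.71), Eif2a (0.60), Eif4b (0.51) and Eif4g1 (0.48). Eif5 (0.26, adjusted p = 0.0811), Eif3a (0.29, adjusted p = 0.238), Eif2s1 (0.18, adjusted p = 0.220) and Eif3j (0.10, adjusted p = 0.556) no longer passed the edgeR threshold, and Eif2b1, Eif3b, Eif3g and Eif5a did. For the summed Eif3j the correction used the 5413 bases of Eif3j1. Most of its reads in SIRPα KO, but not in WT, were counted on Eif3j2, of 2379 bases, so its corrected value is uncertain. Eif4ebp2 remained lower (-0.99, adjusted p = 0.0125 from edgeR). Eif1 and Eif1b, below 0 as counted, were at 0.01 and -0.02. The part of length in the calls was not tested beyond this correction.

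**Figure D5:**
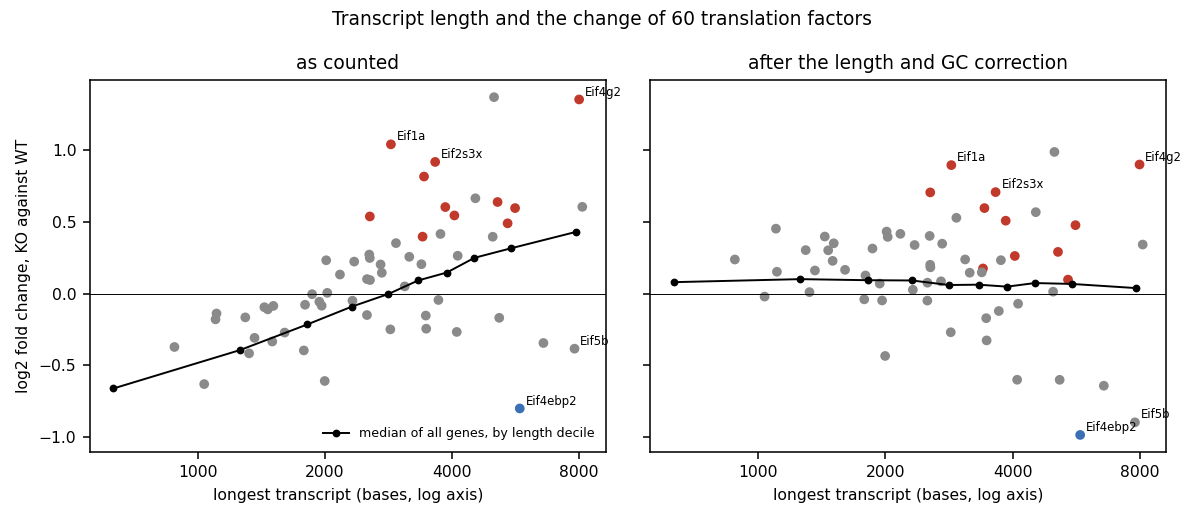
Both panels plot the log2 fold change of SIRPα KO against WT over the length of the longest transcript (bases, log axis) for the 60 genes, as counted on the left and after the correction on the right, coloured by the call before correction (red higher, blue lower, grey not called), and the black line joins medians of the 13485 genes with a known length in 10 classes of length. The black line climbs from -0.66 to 0.43 on the left and stays between 0.039 and 0.10 on the right, while Eif4g2, Eif1a and Eif2s3x stay above it and Eif4ebp2 below it in both.

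The partners of these factors were looked at from lists of their own. Of 7 tested genes of termination and ribosome recycling, 3 rose and none fell by edgeR (1 lay lower at an unadjusted p under 0.05, and 1 by DESeq2): Etf1 (log2 fold change 0.60), the release factor, Gspt1 (0.54), its GTPase, and Abce1 (1.149), which splits the ribosome after release. With the correction for length and GC, Gspt1 was at 0.35 (adjusted p = 0.0693 from edgeR) and lost its call, while Etf1 (0.38) and Abce1 (0.89) kept theirs. Abce1 lay at 189, 207 and 123 CPM in WT and 414, 403 and 336 in SIRPα KO libraries (adjusted p = 0.0175 from edgeR). Of 18 regulators of the cap, the poly(A) tail and elongation, Mtor (0.85, the kinase upstream of the 4E-binding proteins), Dhx29 (0.72) and Ddx3x (0.72), both helicases that help scanning, rose. None of the 18 fell by edgeR (1 lay lower at an unadjusted p under 0.05, and 0 by DESeq2), and the median was 0.067. With the correction for length and GC, Mtor was at 0.62 (adjusted p = 0.0980), Dhx29 at 0.52 (adjusted p = 0.0619) and Ddx3x at 0.37 (adjusted p = 0.144 from edgeR), so that none of the 3 kept its call, and without WT replicate 3 the list held 1 call. Of 11 genes of the eIF2α kinases and the integrated stress response, none rose by edgeR (4 lay higher at an unadjusted p under 0.05, and DESeq2 called 3) and 1 fell. That gene was Ddit3, which encodes the stress factor CHOP, at 39.5, 39.7 and 41.6 CPM in WT and 15.9, 16.9 and 18.7 in SIRPα KO libraries (log2 fold change -1.23 ± 0.16, adjusted p = 0.00970 from edgeR). Its upstream activator Atf4 was at -0.47 ± 0.18 (adjusted p = 0.124 from edgeR), and Eif2ak4, the kinase GCN2 that senses uncharged transfer RNA, at 1.30 ± 0.36 (adjusted p = 0.0536 from edgeR). With the correction for length and GC, Ddit3 kept its call at -0.84 (adjusted p = 0.0314 from edgeR). Atf4 was then at -0.10 (adjusted p = 0.667) and Eif2ak4 at 1.09 (adjusted p = 0.0713 from edgeR).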

How the data were processed

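RNA was made into cDNA with the SMARTer Ultra Low Input v3 kit and sequenced on a NextSeq 500. The authors deposited estimated counts per gene, not whole in every cell, made with Partek and STAR on mm10 with GENCODE M21. The submitters' processing notes name Partek 10.0 and STAR 2.7.8, while the study's methods give other versions, and neither states strand or the handling of reads with several matches. Counts were rounded, Eif3j1 and Eif3j2 summed, and 17590 gene columns entered only the whole-table fits.

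All 6 libraries were fitted together in edgeR 4.0.16 (R 4.3.3, filterByExpr, TMM, quasi-likelihood test, genotype only, Benjamini-Hochberg over all 13622 genes, threshold 0.05), checked on simulated data. In these, edgeR recovered 32% of genes changed by a log2 fold change of 1 in size and 75% of those changed by 2. It called 3 unchanged genes there. When a length trend was simulated as well, it called 692 unchanged genes without the correction for length and GC and 8 with it. A log2 fold change is SIRPα KO against WT and its error is a standard error. CPM uses TMM library sizes. An exact permutation test of 3 against 3 cannot go below p = 0.1 and was not used. DESeq2 1.42.0 replaced the study's DESeq as an alternative. The others were other scalings and filters, a spline correction for length and GC content (5 degrees of freedom), a replicate block, summed codes and leaving out each library. Lengths are of the longest GENCODE transcript (for Eif3j, of Eif3j1), near-identical copies (95% identity over 50% of the length) came from BLAST+ 2.17.0, and promoters from RefSeq.

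Named are all members past the threshold, a fixed set of core factors, the extremes of each role list and those too low to test. Members and lists were chosen with earlier results of these data known.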

Additional observations from a re-analysis of the deposited data

How the results depend on the processing

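Counts of translation factors higher and lower (11 and 1) and of all genes called (1599) depended most on which libraries entered. Leaving out 1 library at a time gave 0 to 20 higher, 0 to 4 lower, medians of 0.020 to 0.148 and 13 to 2605 genes. With libraries of one code summed, 0 were higher and 0 lower by edgeR (16 and 4 at an unadjusted p under 0.05), of 9 genes in all. DESeq2 gave 18 and 4, of 3081 genes. Upper quartile factors gave 2 lower and a median of -0.081, and fitting Eif3j1 and Eif3j2 apart gave 2 lower. The correction for length and GC content moved the median to 0.19. Same-numbered libraries did not deviate together (correlations -0.042, 0.052 and 0.0075). These values showed no pairing by number, though 3 libraries per group are too few to exclude one. With the replicate block 8 were higher and 0 lower, and the block with the correction gave 5 higher, a median of 0.20 and 452 genes.

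No gene among the 12 called reversed. With the correction alone, and then with the block, Eef1a1 was at 0.13 and 0.15, Eef1akmt1 at 0.24 in both, Eef1b2 at 0.070 and 0.072, Eif1 at 0.010 in both, Eif2b2 at 0.17 in both, Eif3e at -0.071 and -0.054, Eif5a at 0.40 in both and Eif6 at 0.23 in both. Eef2 was at -0.060 with upper quartile factors. Leaving out 1 library at a time, Eef2 ranged from -0.079 (without WT replicate 1) to 0.21, and Eef1a1 from -0.27, Eef1b2 from -0.14 and Eif5a from -0.18 up to 0.14, 0.046 and 0.0023 without WT replicate 3. The cause was not tested for any of these beyond what each setting itself changes.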

Other observations

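Pseudogene columns named after translation factors (10 of them) were left out by their symbols, and 8 of them passed the filter on low counts. None was called (adjusted p from 0.176 to 0.915 by edgeR). The deepest, Eif4a-ps4, had 1121, 720 and 992 reads in WT and 1086, 1146 and 990 in SIRPα KO libraries, and Eef1a1-ps1 had 284, 263 and 510 against 365, 368 and 294, with groups that overlapped in both. For Eif1-ps1, named after the initiation factor gene Eif1, the reads were 38, 37 and 55 against 24, 33 and 16 (log2 fold change -0.98 ± 0.45, adjusted p = 0.176 from edgeR). Here all SIRPα KO libraries were below all WT libraries, as for Eif1 itself.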
